A study of Mus musculus with 9 samples.

Results

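Fgf5, Eomes and Sox1 are 3 genes of early embryonic lineages, taken by name from a table of 12550 genes in mouse fibroblasts undergoing reprogramming to pluripotency. They were picked from these same libraries with results already known, and which of their values guided the choice is not recorded. Their levels and differences are therefore given as a description, with no test. Each of the 3 names matched 1 row, and all 3 rows passed the filter on low values, a mean signal of at least 20.

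Fgf5 encodes a secreted fibroblast growth factor that binds receptor tyrosine kinases and signals through the ERK kinases. Its transcript marks the epiblast that is primed for lineage choice and is low in naive embryonic stem cells. Eomes is a T-box transcription factor that acts downstream of Nodal in forming mesoderm and definitive endoderm, and it is also needed in trophoblast. Sox1 is a transcription factor of the SOXB1 group, with Sox2 and Sox3 as its close relatives, and is among the earliest markers of neural fate.

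The cells were embryonic fibroblasts of the C57Bl/6cJ strain, transfected with plasmids for Oct4, Sox2, Klf4 and c-Myc and grown in stem cell medium with LIF. All of them also received a pretroSuper hairpin construct, aimed at luciferase as the control, at Hnrnpk, or at lincRNA-p21 (gene Trp53cor1). Each hairpin was sampled on days 6, 9 and 12 as 1 library of merged replicates, so there are 9 libraries in 9 groups of 1. The number of replicates merged is not stated. Each target had a single hairpin, so its own side effects and loss of the target cannot be told apart.

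In mouse build mm10 (GENCODE M21), Fgf5 is a protein-coding gene on the plus strand of chromosome 5, chr5:98254184-98277030, with 2 annotated transcripts. Eomes lies on the plus strand at chr9:118478212-118486132 with 3 transcripts, and an antisense gene, Gm33460, overlaps its last 574 bases. Sox1 is a single-exon gene on the plus strand at chr8:12395295-12400126, and all 4832 of its bases lie inside the longer non-coding gene Sox1ot on the same strand. Of 4131 stretches of 31 letters in Eomes transcripts, 89 occur in Gm33460. The overlap with Sox1ot is one of gene spans: Sox1ot was not among the genes sharing most such stretches with Sox1. There the most was 56, with the microRNA gene Gm25239 inside Sox1, and the fewest listed was 8. Whether the authors' counting used strand is not stated, and Gm33460 and Sox1ot were not analysed here. The part of these neighbours in the Eomes and Sox1 signals was not tested.

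The series title concerns CpG methylation at gene promoters, so the promoter letters of the 2 genes that were higher under both hairpins are shown with each CG in capitals. They are the 250 bases before the RefSeq transcript start (GRCm38.p6, plus strand), at chr5:98253934-98254183 and chr9:118477939-118478188.

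Fgf5: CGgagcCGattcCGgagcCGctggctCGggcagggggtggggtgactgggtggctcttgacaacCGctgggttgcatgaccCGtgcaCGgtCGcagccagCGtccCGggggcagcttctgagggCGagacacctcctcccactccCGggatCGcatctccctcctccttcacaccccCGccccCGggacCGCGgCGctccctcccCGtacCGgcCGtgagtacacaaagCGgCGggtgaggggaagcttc
Eomes: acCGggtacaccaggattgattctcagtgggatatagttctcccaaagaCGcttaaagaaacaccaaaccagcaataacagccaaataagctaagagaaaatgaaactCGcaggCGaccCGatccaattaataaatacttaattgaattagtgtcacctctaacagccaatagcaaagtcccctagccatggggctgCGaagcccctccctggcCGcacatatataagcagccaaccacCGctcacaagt

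The Fgf5 stretch holds 24 CG pairs, more than 88% of 32851 promoters of this length, and is 70.8% G or C. The Eomes stretch holds 8 CG pairs, close to the median of 6, and is 46.4% G or C. It carries the letters TATAA, a core promoter element, from position -28 relative to the transcript start, and CCAAT, the element named for those letters, at positions -127 and -84, all on the plus strand. Searched on both strands, TATAA occurs in 22.8% and CCAAT in 33.8% of the promoters. The Fgf5 stretch holds neither, but has TCACACC, letters of the T-box motif, at -82 (3.33% of promoters) and ACAAAG, letters of SOX sites, at -27 (16.5%). These are letter matches only.

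The same window of Sox1 holds 29 CG pairs, more than 93.2% of promoters. Most of it is exon in GENCODE, so only the 30 bases that contain the octamer, the letters bound by POU factors such as Oct4, are shown. They lie at chr8:12395526-12395555 on the plus strand, with the octamer in capitals.

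Sox1: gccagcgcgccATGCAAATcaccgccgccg

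The octamer was the only one of the motifs searched that fell after the RefSeq start of Sox1, and neither strand of the 300-base windows of Fgf5 or Eomes holds it. Of all such windows, 1.74% do.

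The signal is the authors' normalized value, and its column totals differ by 0.025%, so reads per library and depth are unknown. Differences are in log2 of the signal with 10 added, which understates the change of genes at low signal. The SE of a fitted difference reflects how an arm's difference varies over the days, or a day's over the arms, not replicates of the same condition. The limma fit also draws this SE toward the spread of other genes of similar signal, so it is not a gene's own spread alone. Taken by themselves, the 3 daily differences of the Hnrnpk arm from control had an SD of 1.39 for Fgf5, 0.79 for Eomes and 0.96 for Sox1. Both targets were lower with their hairpin: Hnrnpk stood at 23376 to 31243 with luciferase and 11349 to 17016 with its own hairpin, and Trp53cor1 at 237 to 286.5 and 90.5 to 122. Under Hnrnpk knockdown Trp53cor1 was also low, at 119.5 to 137. The replicates are merged, so in this bulk RNA fewer cells with a transcript and less of it per cell cannot be told apart.

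Fgf5 was close to the floor of the table in the control arm and higher with either knockdown, most of all late. In the control arm its signal was 4.5, 8.5 and 8 on days 6, 9 and 12. In the Hnrnpk arm it was 12, 52 and 175 on the same days. In the lincRNA-p21 arm it was 12, 18 and 80.5. Every knockdown library was above every control library, and the knockdown arms overlapped each other, with the same value on day 6.

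On the log2 scale the Hnrnpk arm exceeded the control by 0.60 on day 6, 1.74 on day 9 and 3.36 on day 12. The lincRNA-p21 arm exceeded it by 0.60, 0.60 and 2.33. On day 12 the deposited signal was 21.9 times that of the control in the Hnrnpk arm and 10.1 times in the lincRNA-p21 arm, ratios that rest on a control signal of 8. Fitted over the days, Fgf5 differed from control by 1.90 (SE 0.47, n = 3 days) in the Hnrnpk arm and by 1.18 (SE 0.47) in the lincRNA-p21 arm. Without the control library of day 12 the latter was 0.52, and with 50 added to the signal in place of 10 it was also 0.52.

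Eomes followed the same order of arms from a higher starting signal. It stood at 39, 24 and 22 in the control arm on days 6, 9 and 12. It stood at 74.5, 76 and 153.5 in the Hnrnpk arm. Under the lincRNA-p21 hairpin it stood at 59.5, 46 and 91. No knockdown library overlapped the controls, and on each of the 3 days the Hnrnpk arm was highest and the control lowest, an order held by 3.88% of all 12541 genes tested.

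The Hnrnpk arm exceeded the control in Eomes by 0.79, 1.34 and 2.35 on days 6, 9 and 12 (log2 scale). The lincRNA-p21 arm did so by 0.50, 0.72 and 1.66. The fitted differences from control were 1.49 (SE 0.29) and 0.96 (SE 0.29), the latter 0.57 without the control library of day 12. Between days 6 and 12 the control signal of Eomes went from 39 down to 22, whereas both knockdown arms were at their highest on day 12.

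Sox1 showed another pattern, lowest in the Hnrnpk arm. Its signal was 287, 78 and 64 in the control arm on days 6, 9 and 12. It was 33.5, 33 and 22 in the Hnrnpk arm. It was 108, 99.5 and 79.5 in the lincRNA-p21 arm. The control library of day 6 stood apart, more than 2 times above any other library, and the Hnrnpk libraries lay below all the rest.

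**Figure D1:**
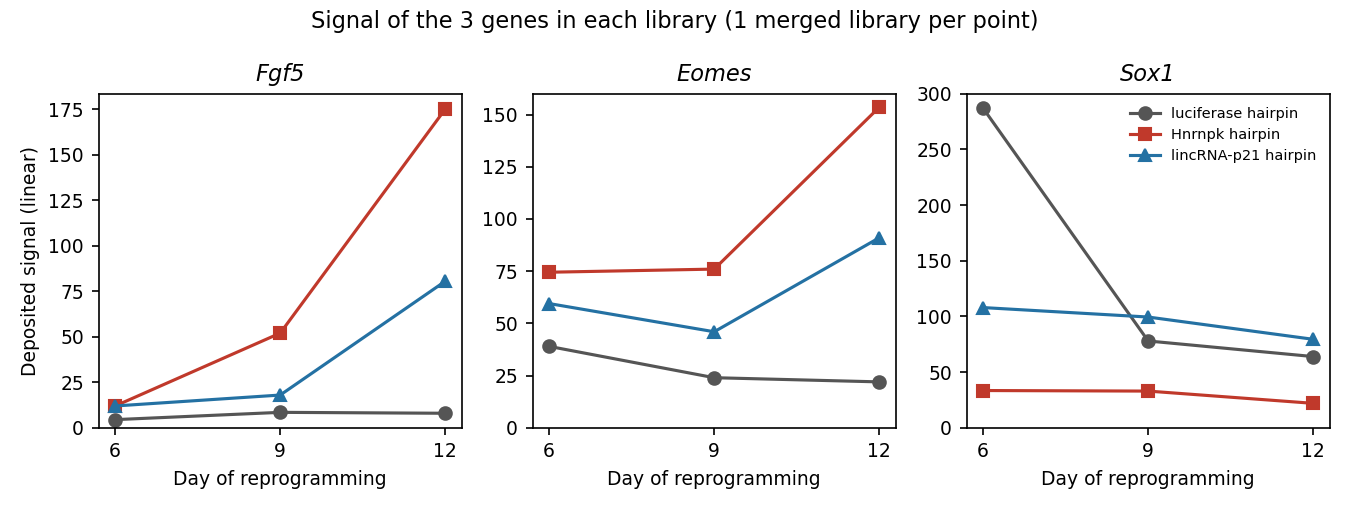
Deposited signal on a linear axis (y) against day of reprogramming (x) for Fgf5, Eomes and Sox1, with 1 point per merged library and 1 line per hairpin arm. Fgf5 and Eomes are highest in the Hnrnpk arm on day 12, at 175 and 153.5, and Sox1 is highest in the control arm on day 6, at 287.

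In Sox1 the Hnrnpk arm was below the control by -2.77, -1.03 and -1.21 on days 6, 9 and 12 (log2 scale). The lincRNA-p21 arm was below it on day 6 (-1.33) and above it on days 9 and 12 (0.32 and 0.27). The fitted difference from control was -1.67 (SE 0.34) in the Hnrnpk arm, and -1.13 without the control library of day 6. In the lincRNA-p21 arm it was -0.25 (SE 0.34), which turned to 0.30 without the control library of day 6 and to 0.020 without the lincRNA-p21 library of day 6. The direction of that difference thus rested on day 6.

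The contrast of the knockdown arms in Sox1 varied little over the days. The lincRNA-p21 arm exceeded the Hnrnpk arm by 1.44, 1.35 and 1.48 on days 6, 9 and 12, with a fitted difference of 1.42 (SE 0.34). That SE also takes in the spread of the control arm, and was 0.17 in the fit without that arm. The SD of the 3 daily differences in Sox1 was 0.07, against 0.63 for Fgf5 and 0.22 for Eomes. Eomes and Fgf5 went the other way, with fitted differences between the lincRNA-p21 and Hnrnpk arms of -0.53 (SE 0.29) and -0.73 (SE 0.47). Without the Hnrnpk library of day 12 these were -0.28 and -0.29, and without that of day 6 they were -0.77 and -1.23. With 50 added, the Sox1 difference between the knockdown arms was 0.87, and with 1 added it was 1.68.

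**Figure D2:**
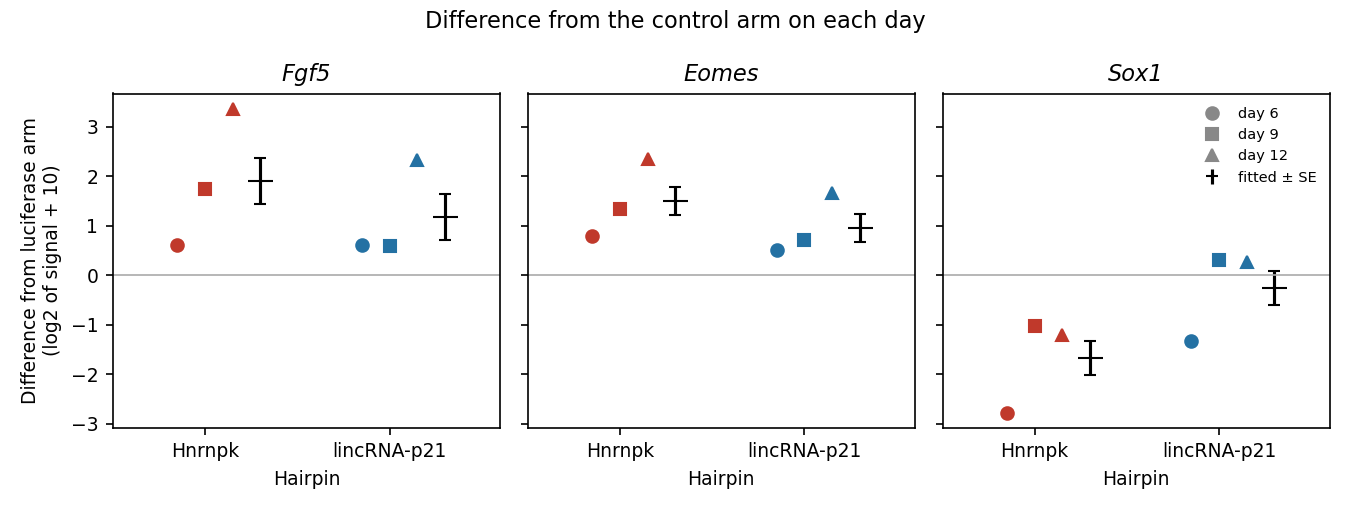
Difference from the luciferase arm in log2 of the signal with 10 added (y) for each knockdown hairpin (x), with 1 symbol per day and the fitted difference with its SE in black. The symbols of Fgf5 and Eomes all lie above 0 and are highest on day 12, and the lincRNA-p21 symbols of Sox1 lie on both sides of 0.

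The separation of arms has to be read against the whole table, and since these genes were selected here nothing is inferred from it. A Hnrnpk arm wholly above the control arm was seen for 6.87% of the genes tested, and wholly below it for 8.52%. A lincRNA-p21 arm wholly above control was seen for 4.31%, and wholly above the Hnrnpk arm for 6.57%. The signals of these 3 genes spread widely: the range over the 9 libraries was 3.67 for Fgf5, 2.35 for Eomes and 3.21 for Sox1 on the log2 scale, larger than that of 98.6%, 93.9% and 97.5% of the genes tested. Their mean signals were low, 41.2, 65.1 and 89.4, with only 0.901%, 3.38% and 6.8% of the genes tested below them. The residual SD after terms for arm and day was 0.74, 0.42 and 0.55, against a median of 0.16 over all genes tested.

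The genes also differed in what set their signal apart. Arm accounted for 74.4% of the variance of Eomes on the log2 scale, day for 10.3% and the remainder was 15.3%. For Sox1 the shares were 65.3%, 18.7% and 16.1%. For Fgf5 arm and day were nearly equal, at 43.5% and 39.1%, with a remainder of 17.4%. Over the 9 libraries, which share arms and days, the log2 signals of Fgf5 and Eomes had a Pearson correlation of 0.85 and a Spearman correlation of 0.90. Sox1 had Pearson correlations of -0.62 with Fgf5 and -0.54 with Eomes.

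Over time, Fgf5 changed little in the control arm and was highest on day 12 in both knockdown arms. From day 6 to day 9 its log2 signal differed by 0.35 in the control arm, 1.49 in the Hnrnpk arm and 0.35 in the lincRNA-p21 arm. From day 9 to day 12 the differences were -0.04, 1.58 and 1.69. Eomes differed by -0.09, 0.93 and 0.85 in that later step, and by -0.53, 0.03 and -0.31 in the earlier one. Sox1 was lower by -1.75 on day 9 than on day 6 in the control arm, but differed by only -0.02 and -0.11 in the Hnrnpk and lincRNA-p21 arms, whose Sox1 signals were already below the control on day 6.

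The other genes of these pathways were tested with limma and Benjamini-Hochberg adjustment over all 12541 genes, which called 12.5% of them in the Hnrnpk arm against control, 5.58% higher and 6.94% lower. In the lincRNA-p21 arm against control it called 0.00797%, which is 1 gene, the neurofilament gene Nefl (1.18, limma adjusted p = 0.0304), and none of the other list genes below. That call was kept in 3 of the 9 fits that each left out 1 library, and its adjusted p reached 0.452. Both comparisons share the control libraries.

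Besides Fgf5, the primed epiblast list of 24 genes had 21 genes tested, of which 6 rose and 1 fell in the Hnrnpk arm. The median difference was 0.79, against 0.00 over all genes tested. In the lincRNA-p21 arm the median was also above that of all genes, 0.72 against 0.02, with 0 genes of the list passing. No gene of the deposited data has a highest value under 32.5. A list gene near the floor in every control library is thus present only because a knockdown library was higher. This can lift the medians and counts of rises of this list and of those below. Nodal, the TGF-beta family signal upstream of Eomes in the embryo, stood at 4.5, 6 and 7 in control cells on days 6, 9 and 12 and at 16, 97 and 165 under Hnrnpk knockdown, and rose by 2.32 (SE 0.44, limma adjusted p = 0.0135). Its signals under lincRNA-p21 knockdown were 7, 33.5 and 73, a difference of 1.32 that did not pass (limma adjusted p = 0.255). The Nodal co-receptor Tdgf1 (2.70, limma adjusted p = 0.0131), the chromatin factor Utf1 (3.07, limma adjusted p = 0.0196), the tight junction gene Cldn6 (2.36, limma adjusted p = 0.0195) and the homeobox factor Otx2 (1.98, limma adjusted p = 0.0227) also rose, with Trh. The gene that fell was the DNA methyltransferase Dnmt3a (-0.45, limma adjusted p = 0.0332). The count of rises was 0 without the control library of day 9 and 0 without the Hnrnpk library of day 9 or day 12, was 3 without the control library of day 12, and reached 11 without the Hnrnpk library and 15 without the control library of day 6.

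Naive pluripotency genes moved with them. Of 19 tested of 22, 10 rose and none fell in the Hnrnpk arm by limma, with a median of 1.04. Among them, besides Utf1 and Tdgf1, which are in both lists, were the RNA-binding factors Dppa5a (3.22, limma adjusted p = 0.0442) and Lin28a (2.82, limma adjusted p = 0.0451), each call kept in 2 of 9 fits without 1 library, with adjusted p of up to 0.179 and 0.184. The count of rises was 1 without the control or the Hnrnpk library of day 9, 4 without either library of day 12, 6 without the lincRNA-p21 library of day 9, and 14 and 16 without the Hnrnpk or the control library of day 6. In the lincRNA-p21 arm the median of the 19 naive genes was 0.81, and 0 of them passed. Their summed signal was 3576 to 5253.5 with luciferase, 4444 to 17197.5 with Hnrnpk and 3672 to 12669.5 with lincRNA-p21 hairpins, each lowest on day 6. The part of such cells in the Fgf5 and Eomes signal was not tested.

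FGF signalling genes beyond Fgf5 passed about as often as all genes tested. Of 50 listed ligands, receptors and ERK feedback genes, 32 were tested, and 2 rose and 2 fell in the Hnrnpk arm (median 0.13). The rises were those of Fgfbp1, a carrier that releases FGF ligands from the matrix (0.98, limma adjusted p = 0.00848), and of the ERK phosphatase gene Dusp4 (0.69, limma adjusted p = 0.0475). The falls were those of the ERK-induced factor Egr1 (-0.83, limma adjusted p = 0.00872) and the receptor Fgfr3 (-0.61, limma adjusted p = 0.0154). The Dusp4 call was kept in only 2 of 9 fits that each left out 1 library, and its adjusted p reached 0.169. That of Fgfr3 was lost without the control or the Hnrnpk library of day 9, with an adjusted p of up to 0.0874. The ligand of naive cells, Fgf4, was at 224, 726 and 695.5 in control cells against 414, 900 and 889 under Hnrnpk knockdown, a difference of 0.50 that did not pass (limma adjusted p = 0.0619).

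The Eomes difference of 1.49 was above that of every other T-box gene tested, and below those of the mesendoderm genes Nodal and Tcf15. Of 9 other T-box genes tested 1 fell under Hnrnpk knockdown and none rose, with a median of -0.31. The gene that fell was Tbx21, the T-bet factor of lymphocytes and a close relative of Eomes, at 447, 280.5 and 187.5 in control cells against 256, 192.5 and 86.5 under Hnrnpk knockdown (-0.78, limma adjusted p = 0.0117). Of 39 other mesendoderm genes 10 were tested and only Nodal passed (1 higher, 0 lower, median 0.03). The paraxial mesoderm factor Tcf15 was at 1.63 (limma adjusted p = 0.0591), Snai1 at -0.34 (limma adjusted p = 0.133) and the endoderm factor Gata6 at 0.25 (limma adjusted p = 0.424). Brachyury, Mixl1, Gsc, Foxa2 and Sox17 were not analysed here.

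Eomes also marks trophoblast and lymphocytes. Of 23 other trophoblast genes 13 were tested, and 3 rose and none fell in the Hnrnpk arm: the keratins Krt18 (2.14, limma adjusted p = 0.0158) and Krt7 (0.55, limma adjusted p = 0.0131), which many epithelia share, and the imprinted gene Peg10 (1.61, limma adjusted p = 0.0397). All 3 calls were lost in some fits without 1 library, that of Peg10 in all but 2 of 9 with an adjusted p of up to 0.165, that of Krt18 in 3 with one of up to 0.0757 and that of Krt7 without the control library of day 9 or the Hnrnpk library of day 12 with one of up to 0.0524. The trophoblast factor Elf5 was at 0.67 (limma adjusted p = 0.0603) and Tfap2c at 0.82 (limma adjusted p = 0.111). The summed trophoblast signal was 11524 to 19246 with luciferase, 12807 to 35318.5 with Hnrnpk and 10302.5 to 17930 with lincRNA-p21 hairpins. Keratins and Peg10 made up most of the sum of 35318.5, on day 12. Krt8 stood at 12331.5 there, Peg10 at 5860, Krt7 at 5842 and Krt18 at 4980, against 361.5 for Tfap2c and 192 for Elf5. Of 18 lymphocyte markers 2 were analysed, Tbx21 and Lck, with sums of 215.5 to 488 with luciferase, 221.5 to 310.5 with Hnrnpk and 211.5 to 306.5 with lincRNA-p21 hairpins. The part of these cell types in the Eomes signal was not tested.

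Sox1, at -1.67, lay outside the range of the other neuroectoderm genes tested. Of 38 others 21 were tested, 5 rose and 1 fell in the Hnrnpk arm, with a median of -0.09. Gbx2, a hindbrain patterning factor also expressed in stem cells, rose by 1.80 (limma adjusted p = 0.00844), the homeobox patterning gene Irx3 by 1.28 (limma adjusted p = 0.00272), N-cadherin, Cdh2, by 1.22 (limma adjusted p = 0.00227) and the progenitor filament gene Nes by 1.03 (limma adjusted p = 0.00844), with Otx2 the fifth. Cdh2 and Nes are also genes of mesenchymal cells. The call of Nes was lost without the control library of day 9 (limma adjusted p = 0.0513). Dnmt3a and Trh above were named after their values were seen, and their calls were kept in 2 and 3 of the 9 fits without 1 library, with limma adjusted p of up to 0.127 and 0.157.

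Sox1 marks neural progenitors, and some markers of mature neurons rose in the Hnrnpk arm, where Sox1 was lowest. Of 18 neuron markers 8 were tested, and 3 rose and none fell by limma: Nefl (2.33, limma adjusted p = 0.000117), Tubb3, a tubulin of neurons (1.15, limma adjusted p = 0.00462), and the filament partner of Nefl, Nefm (2.12, limma adjusted p = 0.00342). The other markers tested did not pass: Dcx and Gap43 were at 0.25 and 0.21, and Map2, Stmn2 and Syt1 at -0.08, -0.29 and -0.39. In the lincRNA-p21 arm Nefl, Nefm and Tubb3 were at 1.18, 1.18 and 1.24, of which only Nefl passed. The list median was 0.64 there and 0.23 in the Hnrnpk arm. Nefl stood at 325.5, 192 and 158.5 in control cells and at 1842, 1061.5 and 714 under Hnrnpk knockdown. The 3 calls were kept in each of the 9 fits without 1 library. The summed neuron signal was 32041, 20253.5 and 14817.5 with luciferase on days 6, 9 and 12 and 24456.5, 14776.5 and 20125 with Hnrnpk, so the sum was lower under Hnrnpk knockdown on days 6 and 9 and higher on day 12. With the lincRNA-p21 hairpin it was 15409.5 to 47834.5. All 24 fibroblast markers were measured, with sums of 280072 to 315083, 236945.5 to 356203 and 301012.5 to 369865 in the same order. S100a4, a calcium-binding protein gene, rose (0.68, limma adjusted p = 0.0323) and the collagen gene Col5a1 fell (-0.76, limma adjusted p = 0.0236), calls kept in 3 and 5 of the 9 fits with adjusted p of up to 0.106 and 0.114. The part of neurons or fibroblasts in the Sox1 signal was not tested.

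Within the SOX family, Sox1 was lowest in the same arm as several relatives. Of 9 other SOX genes tested 3 fell under Hnrnpk knockdown and none rose, with a median of -0.37: Sox12, a SOXC factor (-0.84, limma adjusted p = 0.0288), the SOXD factor Sox6 (-0.77, limma adjusted p = 0.0174) and the pluripotency factor Sox2 (-0.48, limma adjusted p = 0.0201). The 3 falls were all lost without the control library of day 9, without the Hnrnpk library of day 9 and without the Hnrnpk library of day 12. Over the 9 fits that each left out 1 library, the calls of Sox12, Sox6 and Sox2 were kept in only 3, 5 and 3. Their limma adjusted p reached 0.0678, 0.0874 and 0.0856. Sox15 was at 1.22 (limma adjusted p = 0.078).

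Sox2 is one of the plasmid factors, so its signal may join plasmid and chromosomal transcripts, whose shares were not tested. It stood at 19009, 17713 and 16340 with luciferase, 12848, 12952 and 12194 with Hnrnpk and 15392.5, 14212.5 and 13595 with lincRNA-p21 hairpins, on days 6, 9 and 12. Its log2 signal had a Pearson correlation of 0.82 with that of Sox1 over the 9 libraries. Of 4802 stretches of 31 letters in the Sox1 transcript, 10 occur in a Sox2 transcript and 15 in Sox3, and 99 (2.06%) occur in some other annotated gene. The part of reads shared with Sox2 in the Sox1 signal was not tested. The shares for Fgf5 and Eomes were 1.64% and 2.59%, and 89 of the 107 shared stretches of Eomes were shared with its antisense neighbour Gm33460.

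More genes of these lists passed between days 6 and 9 than between hairpins. From day 6 to day 9, over all arms, limma called 39.9% of genes tested, 18.9% higher and 21% lower. In that step 10 of the 21 primed epiblast genes rose and 2 fell (median 1.10; 16 rose without the control library of day 6), beside a fitted Fgf5 difference of 0.73 (SE 0.47) that was 0.22 without the Hnrnpk library and 1.2 without the control library of day 6. Of the 21 neuroectoderm genes 13 fell and 4 rose (median -0.75), of the 9 SOX genes 4 fell and 1 rose, and Sox1 had a fitted difference of -0.63 (SE 0.34), or -0.080 without the control library of day 6. Of the 10 mesendoderm genes 6 fell and 1 rose (median -0.90) and of the 9 T-box genes 5 fell and none rose, with Eomes at -0.27 (SE 0.29), or 0.020 without the control library of day 6. Neuron markers went with them, 7 of 8 falling, and 8 of 24 fibroblast markers fell while 1 rose; the part of these cells in the signals was not tested. From day 9 to day 12 limma called 0.654% of genes, none of them a primed epiblast, mesendoderm, T-box, SOX or FGF gene tested. In that step 1 neuroectoderm gene fell, and 1 trophoblast gene, Krt7, rose (1.63, limma adjusted p = 0.00197). The fitted differences were 1.08 (SE 0.47) for Fgf5, 0.56 (SE 0.29) for Eomes and -0.32 (SE 0.34) for Sox1. Without the control library of day 12 the last 3 were 1.73, 0.95 and -0.077, and without the Hnrnpk library of day 12 they were 0.64, 0.31 and -0.42.

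Between the knockdown arms limma called 3.26%, and none of the primed epiblast, mesendoderm, T-box or SOX genes tested. Of the 13 trophoblast genes 3 were lower in the lincRNA-p21 than in the Hnrnpk arm, Krt18 (-2.0), Krt7 (-1.2) and another keratin, Krt8 (-0.81), with limma adjusted p of 0.045, 0.00393 and 0.0444. Cdh2 and Nes (-0.53 and -0.86), Fgfbp1 (-1.01), the naive pluripotency factor Klf5 (-0.55) and Nefl (-1.15) were also lower, with limma adjusted p of 0.0398, 0.0369, 0.0189, 0.0417 and 0.00547. The growth cone gene Gap43 (1.31) and Col5a1 (0.94) were higher, with limma adjusted p of 0.0404 and 0.0291. In fits without 1 library the Krt7 call was kept in 8 of 9 and that of Nefl in 6, and the others in 2 to 4, with adjusted p of up to 0.241. Krt8, Klf5 and Gap43 were named after their values were seen.

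**Figure D3:**
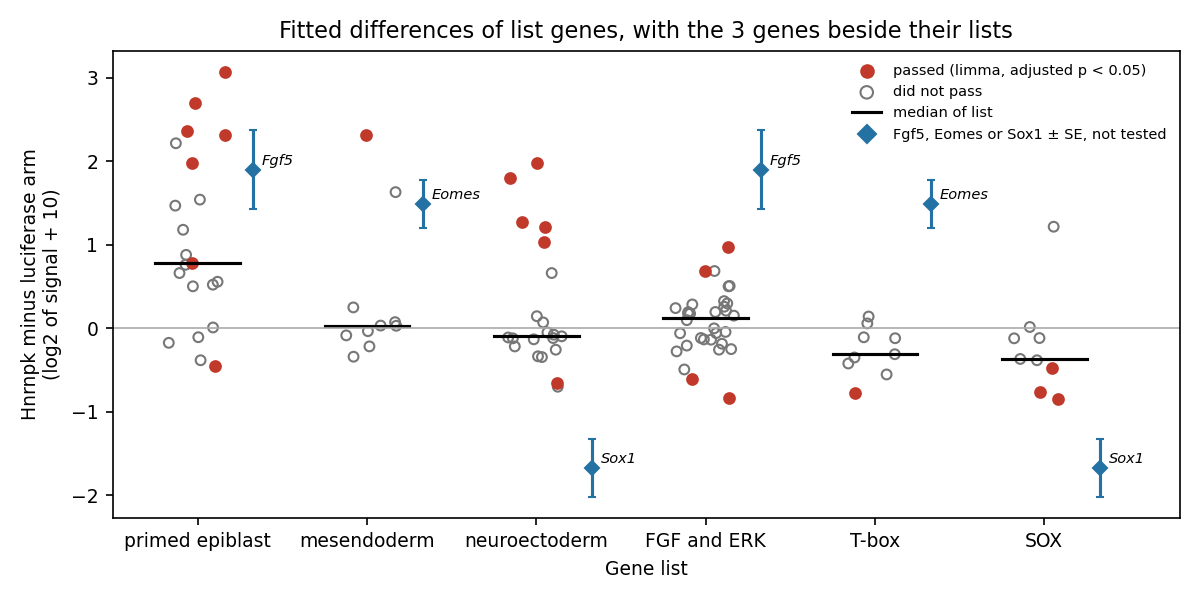
Fitted difference between the Hnrnpk and luciferase arms in log2 of the signal with 10 added (y) for the genes of 6 lists (x), filled where limma passed, with the list median as a bar and Fgf5, Eomes or Sox1 as a diamond with its SE. Eomes at 1.49 lies above all other T-box genes tested and Sox1 at -1.67 lies below all other SOX and neuroectoderm genes tested.

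The genes whose log2 signal was most like that of each gene were sought among 4681 named genes with at least a 2-fold range, by Pearson correlation over the 9 libraries. For Fgf5 they were Dppa4 (0.99) and Dnmt3l (0.98), both genes of pluripotent and germ cells, then the carbonic anhydrase gene Car4 (0.97), the iodide transporter gene Slc5a5 (0.97) and the lipid carrier gene Apoe (0.96). Dppa4 was at 0, 2 and 3 with luciferase, 0.5, 33.5 and 108.5 with Hnrnpk and 1.5, 9 and 59 with lincRNA-p21 hairpins, on days 6, 9 and 12. Dnmt3l stood at 0, 2.5 and 10, at 1, 65.5 and 282, and at 2, 13 and 114 in the same order. In both genes, as in Fgf5, day 12 of the Hnrnpk arm was highest and day 12 of the lincRNA-p21 arm was next.

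For Eomes the nearest genes were the matrix protease gene Adamts9 (0.97), the opioid precursor gene Penk (0.96), the VEGF receptor gene Flt1 (0.95), the ubiquitin ligase gene Trim6 (0.94) and the RNA-binding protein gene Rbpms2 (0.94). Adamts9 was at 28, 25.5 and 24.5 with luciferase, 49, 70 and 129 with Hnrnpk and 46.5, 40 and 79 with lincRNA-p21 hairpins, and its Spearman correlation with Eomes was 1, the same order of all 9 libraries. None of these 5 is among the mesendoderm, T-box or trophoblast genes listed.

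For Sox1 they were Sox12 (0.97), the plasmid factor Klf4 (0.97), the zinc finger gene Unk (0.97), the linker histone gene H1fx (0.97) and the phosphatase regulator gene Ppp1r26 (0.96). Sox12 was at 3526, 1786 and 1589.5 with luciferase, 1205, 1250 and 1145 with Hnrnpk and 1949, 1688.5 and 1622 with lincRNA-p21 hairpins. Klf4, which like Sox2 may join plasmid and chromosomal transcripts, stood at 56808.5, 39217 and 39217, at 27901, 25958 and 22588, and at 42046.5, 39217 and 39217. The value 39217 thus recurs on days 9 and 12 of the control and lincRNA-p21 arms. The authors' scaling is not stated, so these equal values cannot be read as equal amounts of transcript. In Sox12 and Klf4, day 6 of the control arm was highest and the Hnrnpk libraries were the 3 lowest, as in Sox1. With Spearman correlation Klf4 and Unk stayed among the 5 nearest to Sox1, Adamts9 and Penk among those of Eomes, and none of the 5 among those of Fgf5.

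**Figure D4:**
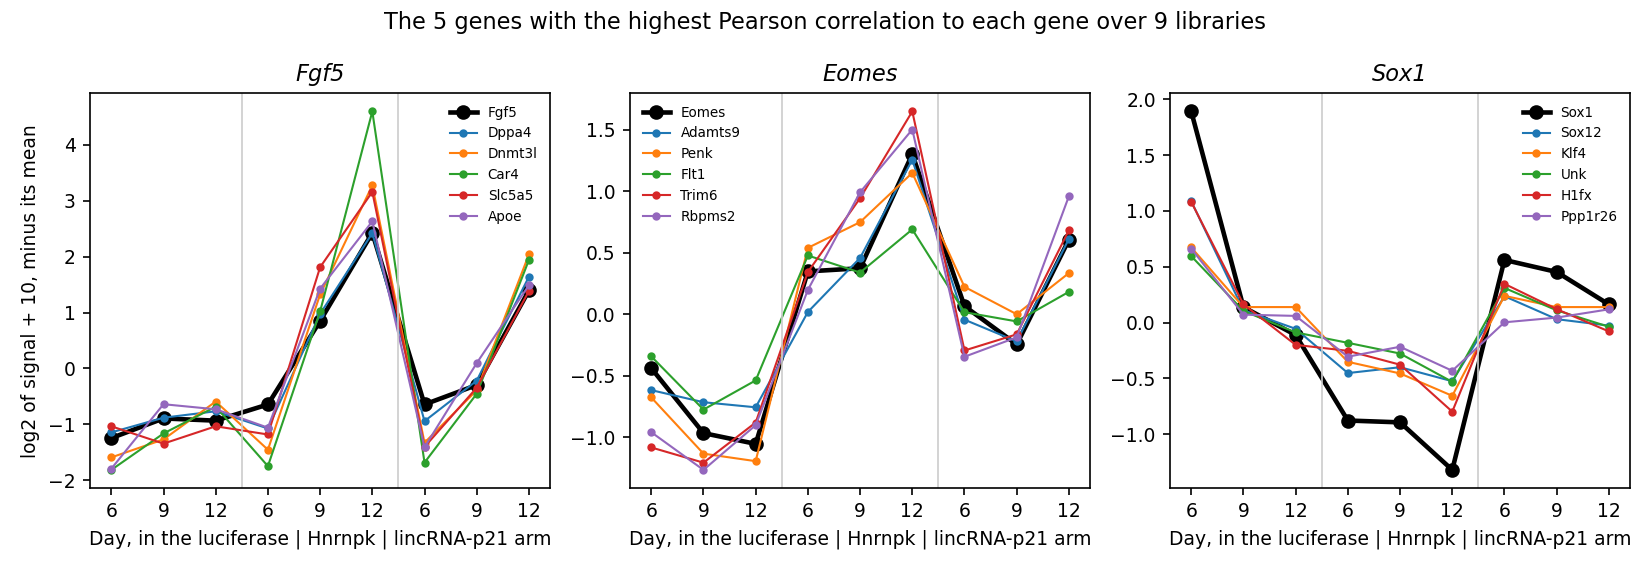
Log2 of the signal with 10 added, minus each gene's own mean (y), over the days of the luciferase, Hnrnpk and lincRNA-p21 arms (x) for each gene in black and the 5 genes most correlated with it. The genes near Fgf5 peak on day 12 of the Hnrnpk arm, and Sox1 and its nearest genes are highest on day 6 of the luciferase arm, where Sox1 stood at 287.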

How the data were processed

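RNA libraries of 9 merged samples were made from total RNA with Illumina protocols, per the labels' protocols. The deposited table gives a normalized signal per gene, made by the authors. The submitters' processing notes name RSEM 1.2.12, Bowtie 1.0.1 and mm10 without their roles, and the scaling is not stated. The signal moves in steps of 0.5 and no gene has a highest value under 32.5, so no count test was used. Values were used as deposited. Tests used limma 3.58.1 in R 4.3.3 on log2 of the signal with 10 added, with additive terms for arm and day (4 residual degrees of freedom), an intensity trend and Benjamini-Hochberg adjustment at 0.05 over 12541 genes with a mean of at least 20; 9 genes lay below. Percentages of variance come from the same terms. The fit was tested on data simulated with the same additive terms and normal noise. It recovered 68% of seeded log2 changes of 1 and 96% of those of 2, with 4.23% and 2.04% of its calls false. The simulated arm differences did not vary with the day, so this cannot show how the fit handles differences that do. The named genes were the 3 genes, their closest relatives, the hairpin targets, up to 4 genes per list with the largest Hnrnpk difference or, where 4 or fewer passed, all that passed, and the 5 genes most correlated with each of the 3, leaving out clone-named genes. The members and lists were chosen with earlier results of these data known. All 3 genes matched the RefSeq promoter table (GRCm38.p6). For 1 of the genes that passed, which is counted in its list, the values are not reported here.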

Additional observations from a re-analysis of the deposited data

How the results depend on the processing

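Fgf5 and Eomes were higher in both knockdown arms than in control under the alternatives that kept them (other added values, no filter, centring on the median, no trend, and leaving out a library, day or arm), and Sox1 was lower in the Hnrnpk arm. A minimum mean of 100 removed all 3. The added value moved the sizes: with 1 and with 50 added the Hnrnpk differences were 2.67 and 0.98 (Fgf5), 1.76 and 0.92 (Eomes) and -1.93 and -1.10 (Sox1). With each library left out, the Hnrnpk differences ranged from 1.25 to 2.41 (Fgf5), 1.10 to 1.78 (Eomes) and -1.97 to -1.13 (Sox1), and the lincRNA-p21 differences from 0.52 to 1.65, 0.57 to 1.25 and -0.55 to 0.30. Between the knockdown arms the ranges were -1.23 to -0.29 (Fgf5), -0.77 to -0.28 (Eomes) and 1.15 to 1.69 (Sox1). Sox1 in the lincRNA-p21 arm was 0.29 without day 6. From day 6 to 9 the ranges were 0.22 to 1.2 (Fgf5), -0.51 to 0.020 (Eomes) and -0.91 to -0.080 (Sox1), and from day 9 to 12 0.64 to 1.73, 0.31 to 0.95 and -0.62 to -0.077 (Sox1 -0.19 with 50 added). Gap43 in the Hnrnpk arm, which did not pass, was 0.21 and ranged from -0.17 to 0.48 with a library left out (-0.083 without the control library of day 12), and was -0.24 without day 12. The Sox1 difference between knockdown arms was 1.68 with 1 added and 0.87 with 50 added.

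Counts of genes passing limma moved more. With a library left out they were 559 to 2045 (Hnrnpk against control, 1570), 0 to 92 (lincRNA-p21 against control, 1), 4 to 959 (between knockdown arms, 409), 3062 to 5605 (day 6 to 9, 5008) and 1 to 421 (day 9 to 12, 82). Without days 6, 9 and 12 they were 3001, 25 and 367 for Hnrnpk, 175, 0 and 0 for lincRNA-p21, and 649, 0 and 0 between the knockdown arms. Without the third arm they were 330, 0 and 646. The lincRNA-p21 count was 0 with 50 added and 13 without the trend. Day 6 to 9 gave 1778 without the lincRNA-p21 arm. Day 9 to 12 gave 50 with 1 added, and 2, 11 and 0 without the luciferase, Hnrnpk and lincRNA-p21 arms. Where limma passed 0 genes, 600 to 1964 had an unadjusted p under 0.05. The cause of these moves was not tested, beyond the fewer libraries in each such fit. Depth per library is unknown.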
